A study of Homo sapiens with 6 samples.

Results

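Genes for voltage-gated potassium and calcium channel subunits were examined in the established prostate cancer line 22RV1, of human origin. The members were the protein-coding genes whose symbol begins with KCN, further letters and a digit, without the KCNIP genes, or with CACNA, CACNB or CACNG. The deposited table held 74 of them among 17811 genes, 55 for potassium and 19 for calcium channels, on 18 chromosomes. The selection by symbol is wider than its name, since 18 of the 74 encode inward rectifier or 2-pore-domain potassium channels, which are not classed as voltage-gated. The KCNN genes among the members encode channels opened by calcium and not by voltage. Pore subunits of voltage-gated channels in the strict sense made up 27 members.

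Poly(A) RNA was sequenced from 3 groups with 2 libraries each. All 6 libraries came from 22RV1 cells grown in RPMI-1640 medium with fetal bovine serum. The control cells carried a stable hairpin against luciferase (shLuc), a gene human cells lack, and the others carried a stable hairpin against IMPA1 (shIMPA1) or IMPDH2 (shIMPDH2). Every group, the control included, thus expresses a hairpin. IMPA1 encodes an inositol monophosphatase, and IMPDH2 an enzyme of guanine nucleotide synthesis. The labels name 1 stable line for each group and do not say if replicate libraries were made from separate cultures, clones or hairpins. The p-values thus rest on a spread between libraries that may be only technical.

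Voltage-gated channels open when the membrane depolarizes: calcium channels let calcium in, and potassium channels let potassium out and return the membrane toward rest. The pore subunit sets the ion and the voltage range, and auxiliary subunits alter trafficking, gating and pharmacology. Inward rectifiers and 2-pore-domain channels hold the resting potential. These genes are best known from nerve, heart and muscle, but epithelial and cancer cells express many of them, and large-conductance, ether-a-go-go-related and T-type channels have been studied in prostate cancer cells.

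Library depth ranged from 20828900 to 27773294 reads in the listed genes. Normalised read counts of IMPA1 were 1621 and 1331 in shLuc against 957 and 1101 in shIMPA1 (log2 change -0.52, limma adjusted p = 0.0145). IMPDH2 stood at 4270 and 5032 in shLuc against 2932 and 3166 in shIMPDH2 (log2 change -0.61, limma adjusted p = 0.00999). Both falls were modest, and they lost their calls when 1 library was left out: IMPA1 without shLuc replicate 1 (adjusted p = 0.159), and IMPDH2 without shLuc replicate 2, shIMPDH2 replicate 1 or shIMPDH2 replicate 2 (adjusted p up to 0.127). All 9 prostate luminal markers looked up were listed, with summed values of 120710 to 123062 in shLuc, 93022 to 95279 in shIMPA1 and 99082 to 105569 in shIMPDH2. KRT8 made up much of these sums (71625 and 63788 in shLuc), and the markers went both ways: 2 were called higher and 3 lower in shIMPA1, and 4 higher and 2 lower in shIMPDH2. Of 12 neuronal and neuroendocrine markers 8 were listed, summing to 14334 and 14988, 14330 and 12996, and 13902 and 14509 in the same order. Among these, CHGA (chromogranin A) rose in shIMPA1 and fell in shIMPDH2, at 540 and 596 in shLuc, against 1283 and 1129 in shIMPA1 and 261 and 298 in shIMPDH2 (log2 changes 1.08 and -1.02, limma adjusted p = 0.00029 and 0.000702). SCG2 also rose in shIMPA1 (log2 change 0.82, limma adjusted p = 0.0205), a call lost without either shLuc library (adjusted p up to 0.128). Of the 8, 2 others fell there, and CHGA was the 1 call in shIMPDH2. Of 8 fibroblast and smooth muscle markers 6 were listed, with sums of 612 and 633, 455 and 323, and 291 and 290. None of 5 muscle or 3 endothelial markers and 1 of 4 blood markers was among the listed genes. The part of these markers in the channel results was not tested.

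The channel genes were expressed at low levels compared with the rest of the transcriptome, and many of them changed. The median member had a normalised count of 105 in shLuc, 124 in shIMPA1 and 63.9 in shIMPDH2, where the median over all genes was 394, 391 and 379. Of the 74 members, 71 reached a value of 10 in at least 2 libraries and were tested. CACNA1F, CACNG6 and KCNN4 did not, and CACNA2D3, KCNA7 and KCND3 passed only through 1 group, the one where each was highest. CACNG8, KCNE4, KCNJ9, KCNK9 and KCNK17 reached 10 in both libraries of their highest group and in only 1 library outside it. Calls of these genes are thus partly set by the filter, and they remain in the counts that follow. Against shLuc, 40 of the 71 were called in shIMPA1, which is 56.3%, where 30.2% of all tested genes were called. There 17 members rose, where 14.0% of all genes were called higher, and 23 fell, where 16.2% were called lower. In shIMPDH2, 33 members were called against shLuc where 17.0% of all genes were called. Only 4 of these rose, where 7.86% of all genes were called higher, and 29 fell, where 9.15% were called lower. The median member changed by -0.16 on the log2 scale in shIMPA1 and by -0.64 in shIMPDH2, and the median over all tested genes by 0.02 and -0.01. Both comparisons use the same shLuc libraries, so their values are given side by side and are not independent of each other. With 2 libraries a group, values that do not overlap are common. Of 17742 tested genes, only 5969 overlapped with shLuc in shIMPA1 and 6000 in shIMPDH2, and of the 71 members 13 and 11 did. In these bulk libraries, fewer cells expressing a channel and less RNA per cell cannot be told apart. In all, 53 members were called in at least 1 of the 3 comparisons and 18 in none, where 44.5% of all tested genes were called in at least 1.

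Summed over genes as normalised counts per kilobase of exon, the potassium channel members stood at 3121 and 3089 in shLuc, against 2107 and 1942 in shIMPA1 and 1494 and 1524 in shIMPDH2. Inward rectifiers summed to 1118 and 1081 in shLuc, against 407 and 393 in shIMPA1 and 310 and 324 in shIMPDH2. Calcium channel pore subunits summed to 52.4 and 59.3 in shLuc, against 123 and 136 in shIMPA1 and 48.1 and 49.5 in shIMPDH2. The calcium channel gamma subunits stood at 45.5 and 55.6, 61.4 and 70.6, and 7.33 and 7.13 in that order. Beta subunits had sums between 321 and 358 in all 6 libraries. Single genes weighed heavily on some of these sums. KCNJ8 alone stood at 953 and 920 in shLuc, most of the inward rectifier sum. Among the calcium channel pores, CACNA1H went from 3.97 and 3.97 in shLuc to 51.7 and 62.3 in shIMPA1, while CACNA1G fell.

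**Figure D1:**
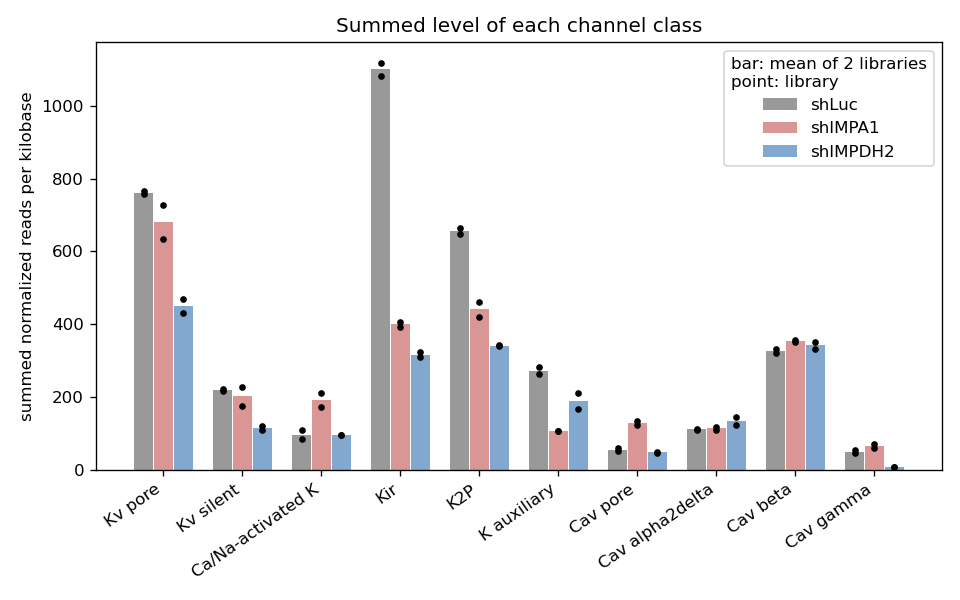
Normalised counts per kilobase of exon summed over the members of each channel class, with bars for the mean of 2 libraries per group and points for the libraries. Inward rectifiers are highest in shLuc (1118 and 1081, of which KCNJ8 makes up 953 and 920). Calcium channel pore subunits are highest in shIMPA1 (123 and 136, of which CACNA1H makes up 51.7 and 62.3).

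A few members carried most of the channel RNA per length. In shLuc the highest was KCNJ8 with 937 ± 23.5 normalised counts per kilobase of exon (SD, n = 2). It was followed by KCNK1 with 400 ± 11.1, CACNB3 with 272 ± 6.43, KCNMB4 with 199 ± 15.0, KCNH2 with 190 ± 13.6 and KCNS3 with 183 ± 4.56 (SD, n = 2 each). Neither KCNMB4 and KCNH2 nor KCNH2 and KCNS3 differed by more than their spread. The order depends on the length used: per kilobase of the longest coding transcript, CACNB3 (721) stood above KCNK1 (671), and KCNMB4 (205) below KCNH2 (261) and KCNS3 (239.65). In shIMPDH2 the order at the top, per kilobase of exon, was different, with CACNB3 at 293 ± 6.51 above KCNK1 at 214 ± 4.17 and KCNJ8 at 211 ± 15.5 (SD, n = 2 each).

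**Figure D2:**
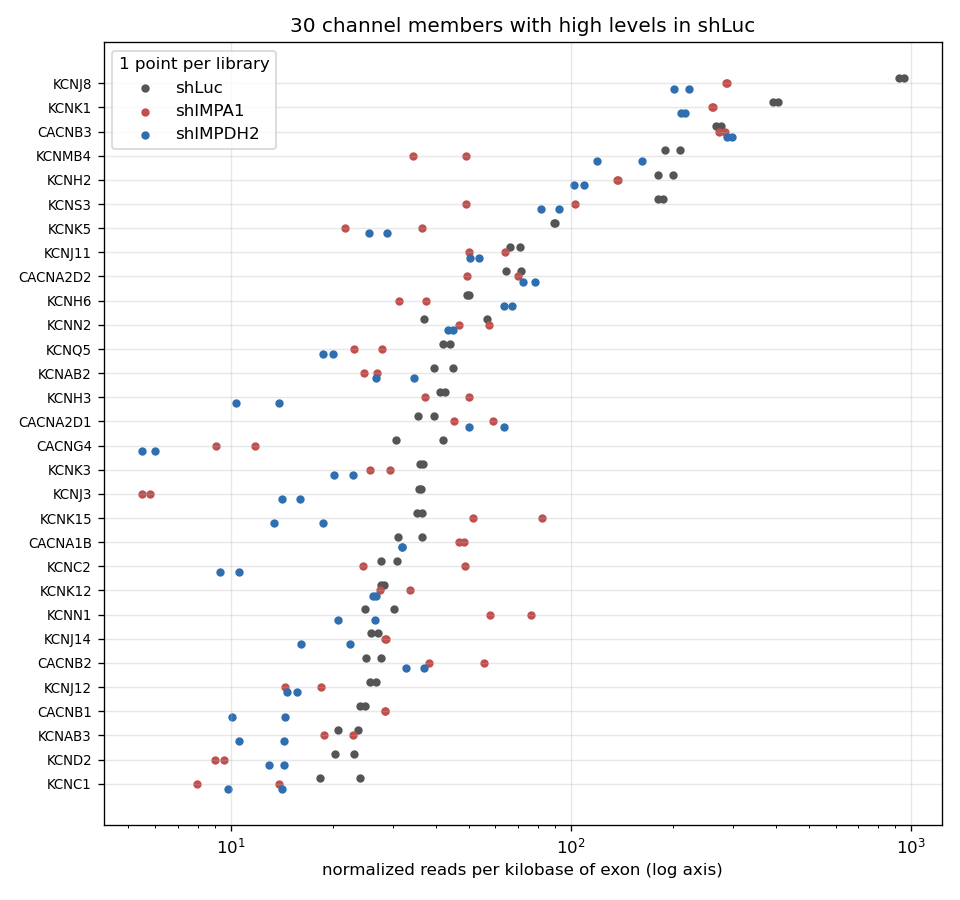
The 30 members with the highest normalised counts per kilobase of exon in shLuc among those reported, on a log axis, one point per library and colours for the 3 groups. KCNJ8 leads in shLuc at a mean of 937 and is close to KCNK1 in shIMPDH2 (211 and 214).

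**Figure D3:**
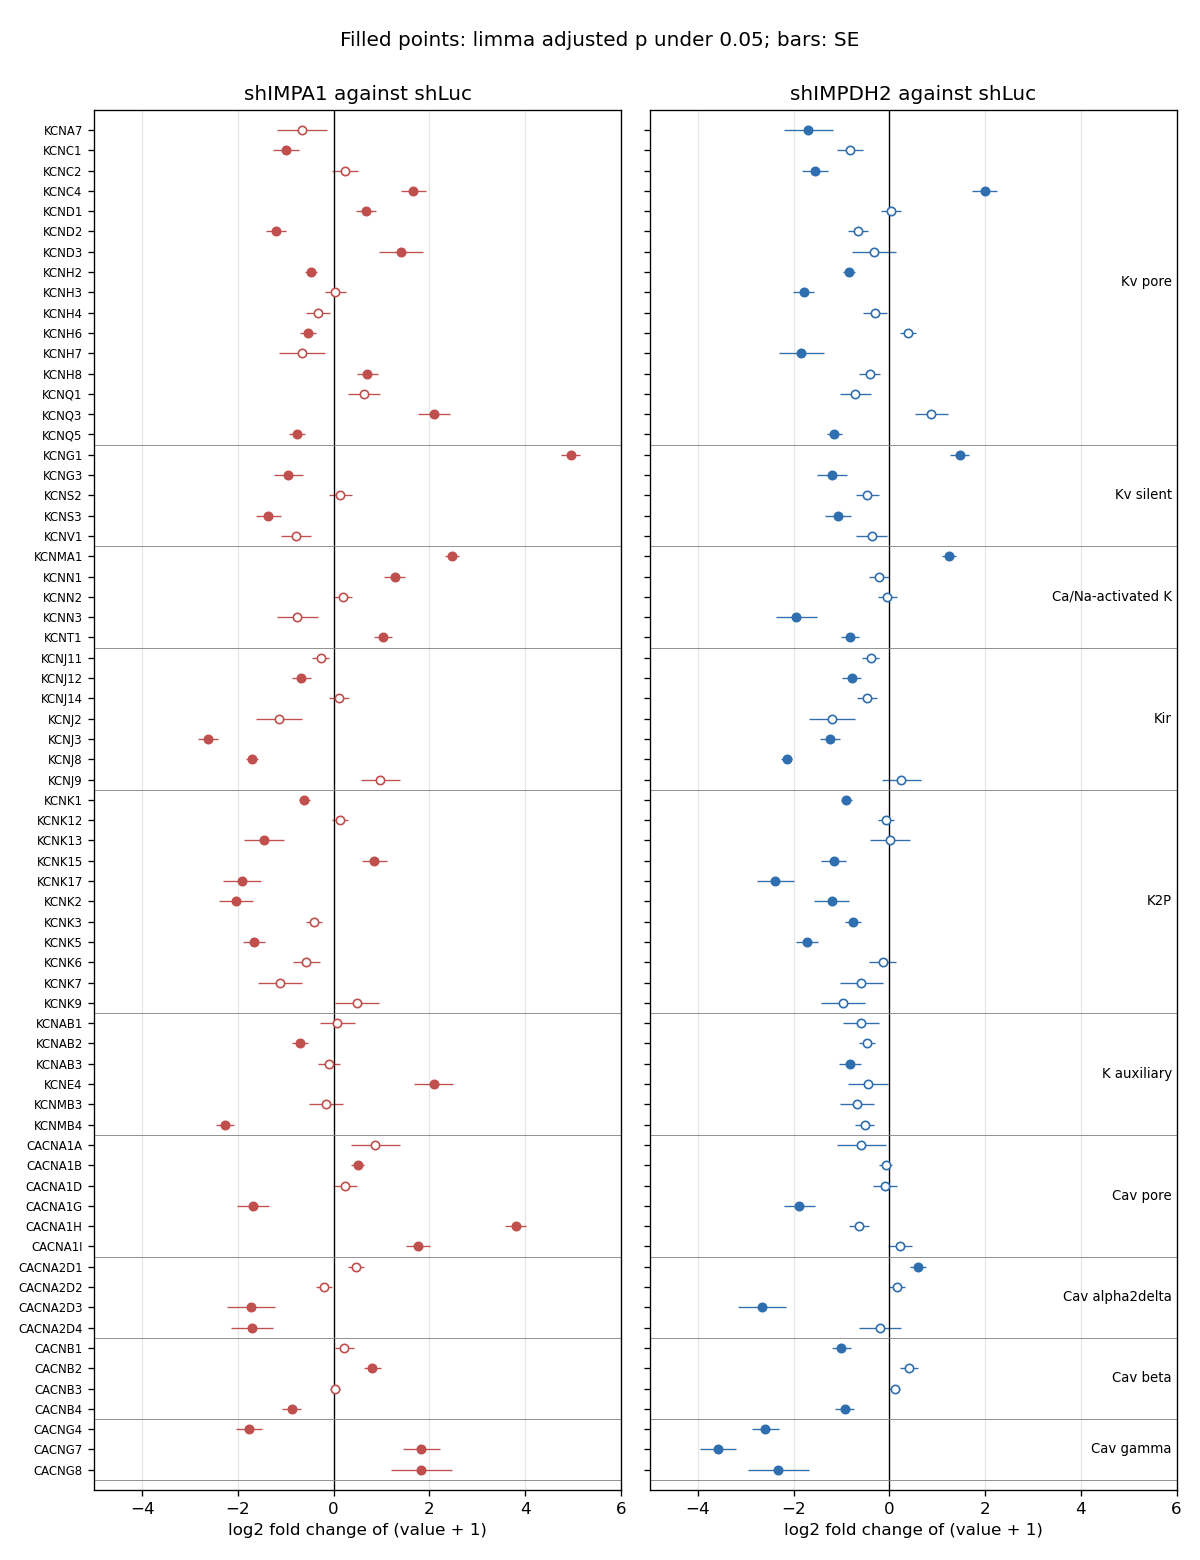
Log2 changes of 67 of the 71 tested members in shIMPA1 and in shIMPDH2, each against the same shLuc libraries, with bars for the SE and filled points for calls (limma adjusted p under 0.05). Of the 67 plotted, 17 were called higher and 22 lower in shIMPA1, and 4 higher and 27 lower in shIMPDH2.

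Of 20 pore subunits of voltage-gated potassium channels, 5 rose, 6 fell and 9 were not called in shIMPA1, where 30.2% of all genes were called. In shIMPDH2, 1 rose, 8 fell and 11 were not called, where 17.0% of all genes were called. KCNQ genes encode the M-type channels, slow currents that damp excitability, and KCNQ1 the slow repolarizing channel of the heart. KCNQ5 fell from 319 and 333 in shLuc to 211 and 174 in shIMPA1 and to 151 and 142 in shIMPDH2 (log2 changes -0.76 and -1.15, limma adjusted p = 0.0055 and 0.000915). KCNQ3, an M-type channel subunit, had few reads and rose in shIMPA1, at 9.9 and 7.88 in shLuc against 39.5 and 42.3 (log2 change 2.09, limma adjusted p = 0.00117). KCNQ1 values were 56.7 and 64.8, 101 and 88.9, and 24.3 and 55.1, and neither knockdown passed against shLuc. Part of its exons (121 bases) lies within the antisense gene KCNQ1OT1, and whether reads were counted by strand is not given in the sources used here.

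The KCNH genes encode the ether-a-go-go family, of which KCNH2 (the ERG channel) repolarizes the heart. KCNH2 fell in both knockdowns, with 1062 and 1175 in shLuc, against 803 and 806 in shIMPA1 and 642 and 602 in shIMPDH2. Its log2 changes were -0.47 (SE 0.12, limma adjusted p = 0.0142) and -0.84 (SE 0.12, limma adjusted p = 0.00103), and the groups did not overlap. KCNH3 had 185 and 179 in shLuc, against 217 and 161 in shIMPA1 and 60.1 and 45.0 in shIMPDH2, so only the shIMPDH2 libraries stood apart (log2 change -1.79 ± 0.21 SE, limma adjusted p = 0.000339). KCNH8 had 81.9 and 85.8 in shLuc, against 132 and 142 in shIMPA1 and 72.8 and 54.0 in shIMPDH2. It rose in shIMPA1 (log2 change 0.70, limma adjusted p = 0.0287). Of the other family members, KCNH6 was called lower in shIMPA1 (-0.54), KCNH7 lower in shIMPDH2 (-1.84) and KCNH4 in neither.

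KCNC genes encode fast delayed rectifiers, which shorten action potentials, and KCND genes encode A-type channels, which inactivate quickly. KCNC4, itself a fast-inactivating subunit, rose in both knockdowns, from 43.2 and 39.4 in shLuc to 98.7 and 179 in shIMPA1 and to 173 and 160 in shIMPDH2. The log2 changes were 1.66 and 1.99 (SE 0.26 each, limma adjusted p = 0.00102 and 0.000599). KCNC2 had 200 and 179 in shLuc, against 315 and 159 in shIMPA1 and 60.1 and 68.6 in shIMPDH2, and fell in shIMPDH2 (log2 change -1.55, limma adjusted p = 0.00342). KCND2 fell in shIMPA1, with 112 and 128 in shLuc, against 52.9 and 50.04 in shIMPA1 and 79.7 and 72.0 in shIMPDH2 (log2 change -1.20 ± 0.21 SE, limma adjusted p = 0.00163). The shIMPDH2 value of KCND2, -0.66, fell just outside the threshold (limma adjusted p = 0.0506). KCND1 and KCND3 were called higher in shIMPA1 (0.68 and 1.40), KCNC1 lower in shIMPA1 (-0.99) and KCNA7 lower in shIMPDH2 (-1.69). KCND3 passed the filter only through shIMPA1 and KCNA7 only through shLuc, the groups where they were highest.

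Among these pore subunits the calls of KCNC4, KCND2 and KCNQ3 in shIMPA1 and of KCNC4, KCNH2, KCNH3 and KCNQ5 in shIMPDH2 held when any 1 library was left out. In shIMPA1, calls were lost without either shLuc library for KCNC1, KCND3, KCNH2, KCNH6, KCNH8 and KCNQ5, and without shLuc replicate 2 for KCND1 (adjusted p up to 0.264). KCND1 was also lost without either shIMPDH2 library, and KCNH6 without shIMPA1 replicate 2 or either shIMPDH2 library. In shIMPDH2, KCNA7 was lost without either shIMPDH2 library and KCNC2 without shLuc replicate 1 or shIMPDH2 replicate 1 (adjusted p up to 0.251). KCNH7 was lost without either shLuc library or shIMPDH2 replicate 2 (adjusted p up to 0.194), and its change was -2.61 without shIMPDH2 replicate 1 and -1.07 without replicate 2.

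Against shLuc, the largest change of any tested member was in KCNG1, a silent subunit that forms no channel alone and modifies other pore subunits. KCNG1 (ENSG00000026559, GRCh38 chromosome 20, 51003656 to 51023129) had normalised counts of 17.1 and 16.6 in shLuc, against 543 and 557 in shIMPA1 and 49.7 and 47.2 in shIMPDH2. The groups did not overlap and the libraries of each lay close together. In shIMPA1 it rose 30.9-fold on the log2(value + 1) scale (log2 change 4.95 ± 0.20 SE, limma adjusted p = 9.78e-08). In shIMPDH2 the log2 change was 1.47 (SE 0.20, limma adjusted p = 0.00075). Its exons share 434 bases with a gene on the opposite strand, which was not analysed here.

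KCNS3, another silent subunit and the most abundant of them per kilobase of exon in shLuc (183, against 3.10 for KCNG1), fell in both knockdowns. It had 564 and 585 in shLuc, against 322 and 154 in shIMPA1 and 255 and 289 in shIMPDH2 (log2 changes -1.36 and -1.08, limma adjusted p = 0.00339 and 0.0189). The shIMPA1 libraries differed by more than 2-fold for this gene, yet both lay below shLuc. In shIMPA1 the means per kilobase of exon were 101 for KCNG1 and 76.0 for KCNS3, but their order differed between the libraries. KCNG1 stood at 99.9 and 102.5 there, and KCNS3 at 102.9 and 49.1. KCNG3 was called lower in both (-0.94 and -1.20), and KCNS2 and KCNV1 in neither. The KCNS3 call in shIMPDH2 and both KCNG3 calls were lost without either shLuc or either shIMPDH2 library (adjusted p up to 0.214), and the KCNG3 call in shIMPA1 also without shIMPA1 replicate 2.

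Large-conductance (BK) channels open on depolarization and on calcium. In shIMPA1 their pore gene rose and the beta subunit gene KCNMB4 fell, and in shIMPDH2 the pore gene and the gamma subunit gene LRRC26 rose. KCNMA1, the BK pore (ENSG00000156113), rose in both knockdowns, from 296 and 302 in shLuc to 1509 and 1820 in shIMPA1 and to 801 and 634 in shIMPDH2. Its log2 changes were 2.47 (SE 0.15, limma adjusted p = 1.81e-06) and 1.25 (SE 0.15, limma adjusted p = 0.000338), with no overlap between any of the groups. KCNMB4, the BK beta subunit typical of neurons, fell in shIMPA1, with 1023 and 920 in shLuc, against 240 and 167 in shIMPA1 and 580 and 788 in shIMPDH2. Its log2 change was -2.27 in shIMPA1 (SE 0.19, limma adjusted p = 2.07e-05) and -0.52 in shIMPDH2 (SE 0.19, limma adjusted p = 0.0898). LRRC26, a gamma subunit that lets BK channels open at resting voltages and is no member by symbol, had 196 and 225 in shLuc, against 267 and 221 in shIMPA1 and 613 and 603 in shIMPDH2. It rose in shIMPDH2 (log2 change 1.53 ± 0.15 SE, limma adjusted p = 0.00012) and the shIMPA1 difference of 0.21 did not pass (limma adjusted p = 0.341). Per kilobase of exon, KCNMA1 stood at 8.39, 46.7 and 20.1 and KCNMB4 at 199, 41.8 and 140 in shLuc, shIMPA1 and shIMPDH2. Per kilobase of the longest coding transcript, KCNMA1 stood at 24.8 and KCNMB4 at 205 in shLuc. The other listed beta subunit, KCNMB3, was called in neither, and 3403 bases of its exons overlap those of PIK3CA.

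The stretch around the most upstream RefSeq start of KCNMA1 is shown because this gene rose in both knockdowns. It covers chr10:77637759-77638058 on the minus strand of GRCh38.p14, from 250 bases before to 50 bases after the start. Capitals mark the letters GGGCGG (a GC box) on either strand, of which there are 7, counting overlapping ones.
KCNMA1: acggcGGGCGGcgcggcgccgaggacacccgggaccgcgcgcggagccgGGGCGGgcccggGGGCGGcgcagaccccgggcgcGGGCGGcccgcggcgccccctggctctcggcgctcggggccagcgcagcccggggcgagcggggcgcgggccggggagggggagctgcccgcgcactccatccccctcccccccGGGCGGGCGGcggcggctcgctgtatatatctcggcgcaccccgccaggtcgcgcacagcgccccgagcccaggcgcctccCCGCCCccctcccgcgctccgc

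Small-conductance and sodium-activated channels, which open on intracellular calcium and sodium, differed between genes. KCNT1, the sodium-activated channel, had 134 and 133 in shLuc, against 277 and 270 in shIMPA1 and 85.5 and 66.4 in shIMPDH2. It rose in shIMPA1 (log2 change 1.03 ± 0.18 SE, limma adjusted p = 0.00205) and fell in shIMPDH2 (log2 change -0.82 ± 0.18 SE, limma adjusted p = 0.0123), and the groups did not overlap. KCNN1, a small-conductance channel, rose in shIMPA1, at 99.0 and 120 in shLuc, against 230 and 305 in shIMPA1 and 82.0 and 106 in shIMPDH2 (log2 change 1.27, limma adjusted p = 0.00139). KCNN3 was called lower in shIMPDH2 (-1.95) and KCNN2 in neither. In shIMPDH2, the KCNT1 call was lost without either shLuc library or shIMPDH2 replicate 2 (adjusted p up to 0.142), and the KCNN3 call without either shLuc library or shIMPDH2 replicate 1 (adjusted p up to 0.111).

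**Figure D4:**
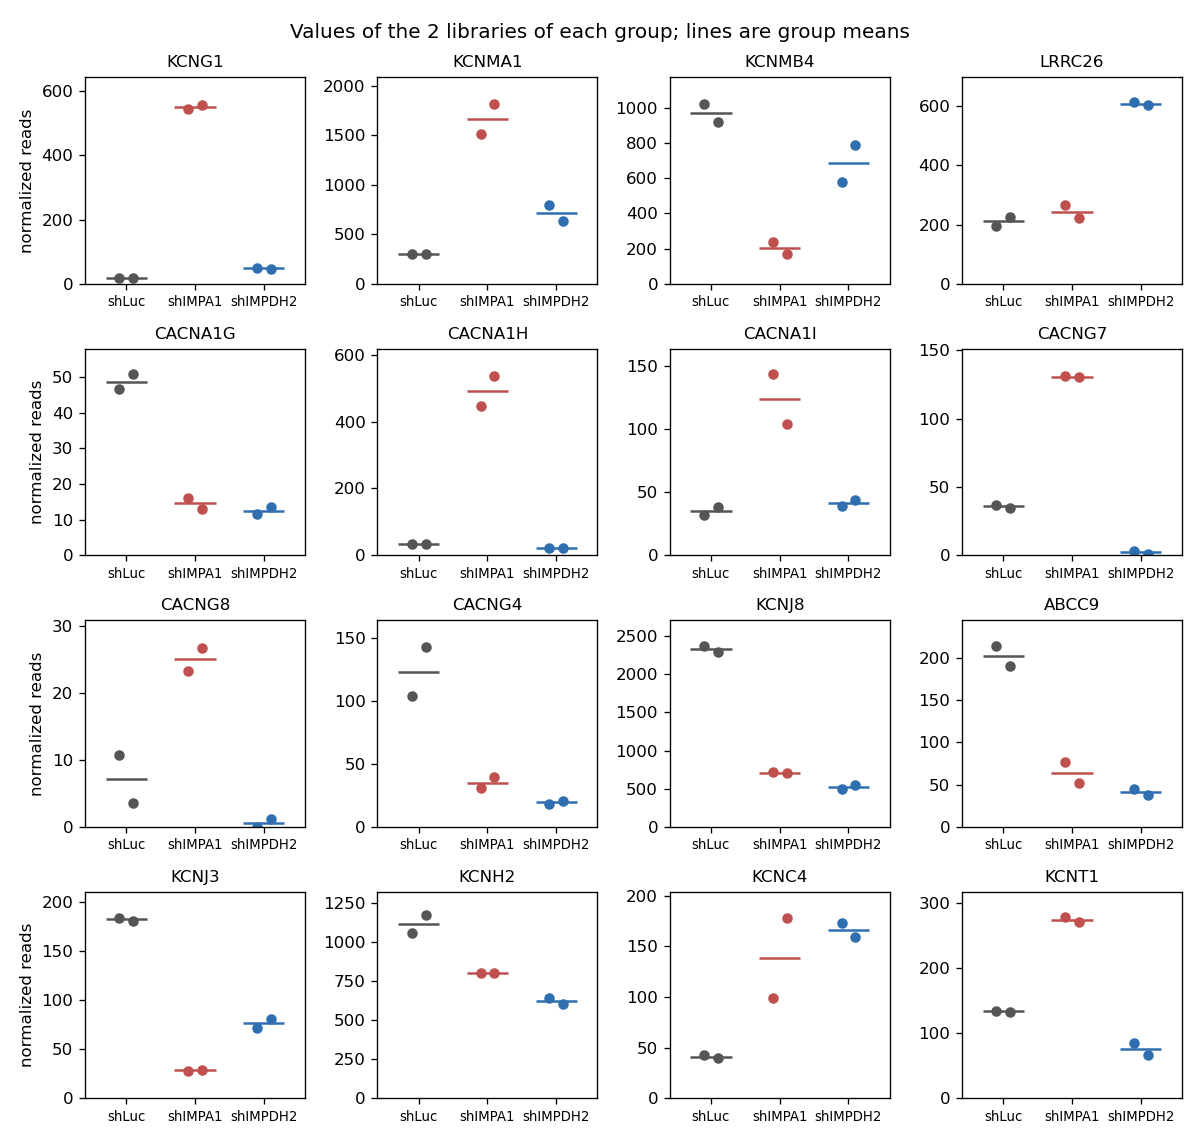
Normalised counts of 16 genes in each of the 6 libraries, on axes of their own, including the BK channel genes, the T-type calcium channels, the gamma subunits and KCNJ8 with ABCC9. KCNG1 is near 17 in shLuc and above 540 in shIMPA1, and CACNG7 is highest in shIMPA1 (131 and 130) and lowest in shIMPDH2 (3.47 and 1.12).

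Inward rectifiers were either lower or not called. In each knockdown, 3 of the 7 fell and none rose, beside 30.2% of all genes called in shIMPA1 and 17.0% in shIMPDH2. KCNJ8, the pore of an ATP-sensitive channel best known from vascular muscle (ENSG00000121361, GRCh38 chromosome 12, 21764955 to 21775581), had 2368 and 2286 in shLuc, against 714 and 709 in shIMPA1 and 498 and 552 in shIMPDH2. The groups did not overlap. Its log2 changes were -1.71 (SE 0.12, limma adjusted p = 5.17e-06) and -2.15 (SE 0.12, limma adjusted p = 1.65e-06). ABCC9, which encodes the sulfonylurea receptor that assembles with the KCNJ8 product, lies 21819 bases away and fell as well. Its values were 213 and 190 in shLuc, against 76.3 and 51.8 in shIMPA1 and 45.1 and 37.1 in shIMPDH2 (log2 changes -1.66 and -2.27, limma adjusted p = 0.000602 and 0.000153). KCNJ3, a G-protein-gated channel subunit, had 184 and 181 in shLuc, against 27.8 and 29.3 in shIMPA1 and 71.6 and 81.0 in shIMPDH2. The fall was larger in shIMPA1 (log2 change -2.63 ± 0.21 SE, limma adjusted p = 1.19e-05) than in shIMPDH2 (log2 change -1.25 ± 0.21 SE, limma adjusted p = 0.00232), and the difference between the knockdowns passed (1.38, limma adjusted p = 0.000897). KCNJ12 was called lower in both (-0.68 and -0.79), and KCNJ11, the other ATP-sensitive pore, KCNJ2, KCNJ9 and KCNJ14 in neither. The KCNJ3 call in shIMPDH2 and both KCNJ12 calls were lost without either shLuc library (adjusted p up to 0.16), and the KCNJ12 call in shIMPDH2 also without either shIMPDH2 library.

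Of 11 background potassium channels of the 2-pore-domain family, 1 rose, 5 fell and 5 were not called in shIMPA1, where 30.2% of all genes were called. In shIMPDH2, 6 fell and 5 were not called, where 17.0% of all genes were called. KCNK1, a weakly rectifying channel and the second most abundant member per kilobase of exon in shLuc, fell from 1478 and 1421 in shLuc to 947 and 945 in shIMPA1 and to 766 and 787 in shIMPDH2. Its log2 changes were -0.62 (limma adjusted p = 0.00265) and -0.90 (limma adjusted p = 0.000495), with no overlap. KCNK5, an alkaline-activated channel of epithelia, had 335 and 337 in shLuc, against 137 and 81.1 in shIMPA1 and 95.9 and 108 in shIMPDH2 (log2 changes -1.66 and -1.71, limma adjusted p = 0.000503 and 0.000702). KCNK17, a related alkaline-activated channel whose gene lies 69550 bases from KCNK5 on chromosome 6, fell from 37.8 and 46.4 in shLuc to 8.98 and 12.1 in shIMPA1 and to 9.24 and 5.62 in shIMPDH2 (log2 changes -1.91 and -2.38, limma adjusted p = 0.00459 and 0.00234). KCNK15 was the exception, with 94.5 and 91.9 in shLuc, against 214 and 134 in shIMPA1 and 48.5 and 34.9 in shIMPDH2. It rose in shIMPA1 (log2 change 0.85, limma adjusted p = 0.0295) and fell in shIMPDH2 (log2 change -1.16, limma adjusted p = 0.012). Its exons share 506 bases with those of RIMS4 on the opposite strand, which had 222 and 248, 262 and 224, and 103 and 110. Its part in the KCNK15 values was not tested.

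KCNK2, a stretch-sensitive channel, was called lower in both knockdowns (-2.04 and -1.21), KCNK13 lower in shIMPA1 (-1.45) and KCNK3 lower in shIMPDH2 (-0.76). KCNK6, KCNK7, KCNK9 and KCNK12 were called in neither. The calls of KCNK1 and KCNK5 held without any 1 library, as did KCNK2 in shIMPA1. In shIMPA1, KCNK13 and KCNK15 were lost without either shLuc library, KCNK15 also without shIMPA1 replicate 1, and KCNK17 without shLuc replicate 2 (adjusted p up to 0.177). In shIMPDH2, KCNK2 and KCNK3 were lost without any 1 of the shLuc or shIMPDH2 libraries, KCNK15 without either shLuc library or shIMPDH2 replicate 2, and KCNK17 without shLuc replicate 2 (adjusted p up to 0.258).

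In 2 pairs of neighbouring genes, KCNJ8 with ABCC9 and KCNK5 with KCNK17, both genes fell in both knockdowns, and their promoters are shown for that reason. This did not hold for every neighbouring pair. KCNJ11 and the sulfonylurea receptor gene ABCC8, 3166 bases apart, were not called in either knockdown (limma adjusted p = 0.264 and 0.145 for KCNJ11, and 0.642 and 0.253 for ABCC8). CACNG7 and CACNG8, described further on, rose in shIMPA1 and fell in shIMPDH2. Each stretch runs from 250 bases before to 50 bases after the RefSeq start on the minus strand of GRCh38.p14, with GC boxes (GGGCGG on either strand) in capitals. KCNJ8 lies at chr12:21774657-21774956, ABCC9 at chr12:21941377-21941676, KCNK5 at chr6:39229426-39229725 and KCNK17 at chr6:39314370-39314669.
KCNJ8: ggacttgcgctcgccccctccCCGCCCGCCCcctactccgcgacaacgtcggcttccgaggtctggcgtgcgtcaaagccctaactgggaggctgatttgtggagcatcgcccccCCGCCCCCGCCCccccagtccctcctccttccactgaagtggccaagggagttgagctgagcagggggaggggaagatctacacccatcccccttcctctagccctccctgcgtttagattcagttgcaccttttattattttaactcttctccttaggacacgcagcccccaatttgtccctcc
ABCC9: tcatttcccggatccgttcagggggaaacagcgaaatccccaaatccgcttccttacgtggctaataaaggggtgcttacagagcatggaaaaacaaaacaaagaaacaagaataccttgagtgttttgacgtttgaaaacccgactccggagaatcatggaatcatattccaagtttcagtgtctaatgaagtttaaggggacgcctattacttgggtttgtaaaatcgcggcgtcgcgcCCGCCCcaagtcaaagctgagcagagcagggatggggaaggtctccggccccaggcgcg
KCNK5: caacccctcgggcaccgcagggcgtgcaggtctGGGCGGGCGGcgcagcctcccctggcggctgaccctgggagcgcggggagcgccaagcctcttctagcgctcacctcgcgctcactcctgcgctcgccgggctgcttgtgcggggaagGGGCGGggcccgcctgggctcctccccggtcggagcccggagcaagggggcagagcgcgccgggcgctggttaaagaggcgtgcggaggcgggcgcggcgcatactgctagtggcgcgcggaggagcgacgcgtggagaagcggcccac
KCNK17: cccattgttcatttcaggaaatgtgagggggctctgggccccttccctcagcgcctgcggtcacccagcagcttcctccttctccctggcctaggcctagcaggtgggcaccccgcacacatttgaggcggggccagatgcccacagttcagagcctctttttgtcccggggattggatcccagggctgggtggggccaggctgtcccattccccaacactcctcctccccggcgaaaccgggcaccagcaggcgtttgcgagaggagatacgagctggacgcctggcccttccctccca
The KCNJ8 stretch holds 4 GC boxes, ABCC9 1, KCNK5 3 and KCNK17 0, counting overlapping ones. RefSeq gave 79 such stretches for 48 of the 74 members, since a gene can have several starts and these may overlap. A GC box occurred in 44 of the 79 (55.7%) and in 44.95% of 35116 stretches of the same length over all genes. TATAAA occurred in 5 (6.33%, against 11.5% of all), CACGTG in 8 (10.1%, against 7.26%), and the androgen receptor half-site AGAACA in 4 (5.06%, against 14.8%), on either strand. The cyclic AMP element TGACGTCA was in 0 of the 79 and in 1.85% of all, and TGATGCAA, bound by C/EBP-ATF dimers, in 0 and 0.866%. The median GC content was 65.7% in the members' stretches and 58.7% in all.

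Of 6 auxiliary potassium channel genes, 1 rose and 2 fell in shIMPA1, where 30.2% of all genes were called. In shIMPDH2 1 fell, which is 16.7% and near the 17.0% of all genes called. KCNE4, a single-span subunit that restrains several pores, rose in shIMPA1, with 9.0 and 14.0 in shLuc, against 36.8 and 70.8 in shIMPA1 and 8.09 and 7.87 in shIMPDH2 (log2 change 2.09 ± 0.41 SE, limma adjusted p = 0.00362). The shIMPA1 libraries lay above all others. Of the cytoplasmic beta subunits, KCNAB2 was called lower in shIMPA1 (-0.71), KCNAB3 lower in shIMPDH2 (-0.83) and KCNAB1 in neither. The KCNE4 call was lost without shLuc replicate 1 (adjusted p = 0.0522), the KCNAB2 call without shLuc replicate 2 (adjusted p = 0.103) and the KCNAB3 call without any 1 of the shLuc or shIMPDH2 libraries (adjusted p up to 0.252).

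The pore subunits of calcium channels moved apart from one another, most clearly among the T-type channels, which open at voltages near rest. In shIMPA1, 3 of the 6 tested pore genes rose and 1 fell, where 30.2% of all genes were called. In shIMPDH2 1 fell, which is 16.7% and near the 17.0% of all genes called. CACNA1H (ENSG00000196557, GRCh38 chromosome 16, 1153121 to 1221772) had 34.2 and 34.1 in shLuc, against 445 and 536 in shIMPA1 and 20.8 and 22.5 in shIMPDH2. In shIMPA1 it rose 13.9-fold on the log2(value + 1) scale (log2 change 3.80 ± 0.21 SE, limma adjusted p = 1.08e-06). In shIMPDH2 both values lay below shLuc, but the log2 change of -0.64 did not pass (limma adjusted p = 0.0639). CACNA1I, another T-type pore, rose in shIMPA1, with 32.4 and 38.5 in shLuc, against 144 and 104 in shIMPA1 and 39.3 and 43.9 in shIMPDH2 (log2 change 1.76 ± 0.25 SE, limma adjusted p = 0.000552). CACNA1G, the remaining T-type pore, fell in both, from 46.8 and 50.8 in shLuc to 16.2 and 12.9 in shIMPA1 and to 11.6 and 13.5 in shIMPDH2. Its log2 changes were -1.69 and -1.88 (SE 0.33 each, limma adjusted p = 0.00316 and 0.00303), and both calls were lost without shLuc replicate 2 (adjusted p = 0.0521 and 0.064). In shLuc the 3 T-type genes thus lay between 32.4 and 50.8, whereas in shIMPA1 they spanned 12.9 to 536.

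Of the high-voltage-activated pores, the N-type CACNA1B was called higher in shIMPA1 (0.50, limma adjusted p = 0.0214), a call lost without any 1 of the shLuc or shIMPDH2 libraries (adjusted p up to 0.188). The P/Q-type CACNA1A and the L-type CACNA1D were called in neither, and the L-type CACNA1F was not tested. Among alpha2delta subunits, which carry channels to the membrane, CACNA2D1 was called higher in shIMPDH2 (0.59), CACNA2D3 lower in both (-1.72 and -2.66) and CACNA2D4 lower in shIMPA1 (-1.71). CACNA2D3 passed the filter only through shLuc and had 5 reads in shIMPDH2, so depth limits the size of its fall there. CACNA2D2 was called in neither. The CACNA2D1 call was lost without any 1 of the shLuc or shIMPDH2 libraries (adjusted p up to 0.292), CACNA2D3 in shIMPA1 without shIMPA1 replicate 2 (adjusted p = 0.135) and CACNA2D4 without either shLuc library (adjusted p up to 0.135).

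Beta subunits bind the pore inside the cell. CACNB3, by far the most abundant calcium channel member, stayed within 1912 to 2130 over all 6 libraries (1912 and 1977 in shLuc, 2027 and 1944 in shIMPA1, 2064 and 2130 in shIMPDH2). Its log2 changes of 0.03 and 0.11 (SE 0.11 each) did not pass (limma adjusted p = 0.865 and 0.54). CACNB1, the skeletal muscle beta subunit, fell in shIMPDH2, with 175 and 170 in shLuc, against 202 and 202 in shIMPA1 and 71.6 and 102 in shIMPDH2 (log2 change -1.003, limma adjusted p = 0.00641). CACNB2 was called higher in shIMPA1 (0.81), and CACNB4 lower in both (-0.88 and -0.93). In shIMPA1 the CACNB2 and CACNB4 calls were lost without either shLuc library (adjusted p up to 0.0864). In shIMPDH2 the CACNB4 call was lost without any 1 of the shLuc or shIMPDH2 libraries, and the CACNB1 call without either shLuc library or shIMPDH2 replicate 1 (adjusted p up to 0.116).

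The gamma subunits gave the widest contrast between the knockdowns. CACNG4, CACNG7 and CACNG8 also serve as trafficking partners of AMPA receptors in neurons. CACNG7 (ENSG00000105605, GRCh38 chromosome 19, 53909335 to 53943941) had 36.9 and 35 in shLuc, against 131 and 130 in shIMPA1 and 3.47 and 1.12 in shIMPDH2. It rose in shIMPA1 (log2 change 1.83 ± 0.38 SE, limma adjusted p = 0.00451) and fell in shIMPDH2 (log2 change -3.58 ± 0.38 SE, limma adjusted p = 0.000153). With 4 reads of CACNG7 in shIMPDH2, the size of that fall depends on the 1 added before the log. The rise lost its call without shLuc replicate 2 (adjusted p = 0.0566). CACNG8, whose gene lies 19098 bases from CACNG7, had 10.8 and 3.5 in shLuc, against 23.3 and 26.7 in shIMPA1 and 0 and 1.12 in shIMPDH2. It had 16 reads in shLuc, 57 in shIMPA1 and 1 in shIMPDH2, so that depth limits its fold: the count ratio of shLuc to shIMPDH2 was 12.5 (95% interval 1.94 to 522, counting error only). Its limma calls (log2 changes 1.83 and -2.32, limma adjusted p = 0.0492 and 0.0295) were lost without any 1 of the libraries of the groups compared (adjusted p up to 0.326). Without shLuc replicate 1 these changes were 2.53 and -1.63, and without replicate 2 they were 1.14 and -3.02. Without shLuc replicate 1 that ratio was 6.14, and without replicate 2 it was 19.0. CACNG6, 2072 bases beyond CACNG8, was too low to test, at 0.900 and 0.875 in shLuc, against 5.39 and 17.3 in shIMPA1 and 1.16 and 1.12 in shIMPDH2. These values stand for 1 read in each shLuc and shIMPDH2 library and for 6 and 20 reads in shIMPA1. The ratio of shIMPA1 to shLuc was 12.9 (95% interval 3.23 to 112, counting error only), with 19.4 when shIMPA1 replicate 1 was left out and 6.07 without replicate 2. CACNG4, on another chromosome, fell in both, from 104 and 143 in shLuc to 30.5 and 39.7 in shIMPA1 and to 18.5 and 20.2 in shIMPDH2 (log2 changes -1.77 and -2.59, limma adjusted p = 0.000895 and 0.000153).

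A direct comparison of the knockdowns does not involve the shLuc libraries in its difference. Of the 71 members, 32 were called in shIMPDH2 against shIMPA1, which is 45.1%, where 26.1% of all genes were called. In shIMPDH2 5 were higher, where 13.5% of all genes were called higher, and 27 were lower, where 12.6% were called lower. The median member differed by -0.47 on the log2 scale, and the median gene by -0.00. All 3 tested gamma subunits were lower in shIMPDH2, CACNG7 with a log2 change of -5.42 (SE 0.38, limma adjusted p = 7.15e-06), CACNG8 with -4.16 (limma adjusted p = 0.00104) and CACNG4 with -0.82 (limma adjusted p = 0.048). CACNG7 had 4 reads and CACNG8 1 read in shIMPDH2, so depth limits the size of their changes. CACNA1H differed by -4.43 (SE 0.21, limma adjusted p = 6.19e-07) and KCNG1 by -3.48 (SE 0.20, limma adjusted p = 1.6e-06). KCNE4 (-2.54), KCNK15 (-2.01), KCNT1 (-1.85), KCNH3 (-1.83), KCNC2 (-1.79), CACNA1I (-1.54), KCNN1 (-1.50), CACNB1 (-1.23) and KCNMA1 (-1.22) were also lower in shIMPDH2. Others lower there were KCND3 (-1.72), KCNK9 (-1.46), KCNQ1 (-1.35), KCNQ3 (-1.21), KCNH8 (-1.12), KCNAB3 (-0.74), KCND1 (-0.65), CACNA1B (-0.58), KCNJ8 (-0.44) and KCNH2 (-0.37). Of these, KCND3 passed the filter only through shIMPA1. The 5 members higher in shIMPDH2 were KCNMB4 (1.75), CACNA2D4 (1.52), KCNK13 (1.47), KCNJ3 (1.38) and KCNH6 (0.93).

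Calls in the direct comparison held without any 1 library for 18 of the 32 members, among them CACNA1H, KCNG1, CACNG7, CACNG8, KCNE4, KCNT1, KCNMA1, KCNMB4 and KCNJ3. The CACNG4 call did not (adjusted p up to 0.186 without either shLuc library, shIMPA1 replicate 2 or either shIMPDH2 library), nor did that of KCNJ8 (adjusted p up to 0.175 without either shIMPDH2 library). CACNA2D4 and KCNK13 were lost too, the former without either shLuc or either shIMPDH2 library and the latter without shLuc replicate 2 or either shIMPDH2 library (adjusted p up to 0.188). Calls were also lost without either shIMPDH2 library for CACNA1B, KCND1, KCNK9, KCNQ3, KCNAB3 and KCNH2, without shIMPDH2 replicate 1 for KCNQ1, and without shIMPDH2 replicate 2 for KCND3 and KCNH8 (adjusted p up to 0.262). Of these, KCNAB3 and KCNH2 were lost without either shLuc library too, KCNK9 without shIMPA1 replicate 1 and KCNQ3 without shIMPA1 replicate 2. A library outside a comparison matters here because all 6 share 1 estimate of the spread.

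Other settings ended calls of some members without turning a direction. Against shLuc, a limma fit without the mean-variance trend ended those of CACNA1B, CACNG8, KCNC1, KCND1, KCNH2 and KCNK15 in shIMPA1 and of CACNA2D1, CACNG8, KCNAB3, KCNH7, KCNK2, KCNK15 and KCNS3 in shIMPDH2. DESeq2 on the recovered reads ended those of CACNA2D3, CACNA2D4, CACNG8, KCND3, KCNG3 and KCNK13 in shIMPA1 and of KCNAB3, KCNG3 and KCNK2 in shIMPDH2. A fit on only the groups compared ended those of KCND1, KCNG3 and KCNH6 in shIMPA1, and CACNG8 was also lost in shIMPA1 with a pseudocount of 0.5 and in shIMPDH2 with a pseudocount of 5 or with edgeR. In the direct comparison, the calls of CACNA2D4, CACNG4, KCNAB3, KCND1, KCND3, KCNH2, KCNJ8, KCNK9, KCNK13, KCNQ1 and KCNQ3 were lost under at least 1 of these settings.

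Genes that work with these channels were looked up from lists written with earlier results of these data known. Of 14 listed potassium channel partners, all tested, none rose and 4 fell in shIMPA1, where 30.2% of all genes were called, and 1 rose and 4 fell in shIMPDH2, where 17.0% were. The single riser was LRRC26. DPP10, which speeds A-type channels, fell from 187 and 212 in shLuc to 73.6 and 76.8 in shIMPA1 and to 98.2 and 82.1 in shIMPDH2 (log2 changes -1.39 and -1.14, limma adjusted p = 0.000467 and 0.00254), the latter call being lost without shLuc replicate 2 (adjusted p = 0.0634). Of 10 tested calcium channel partners, 5 fell in shIMPA1 (30.2% of all genes called) and 3 in shIMPDH2 (17.0% of all genes called), and none rose. RIMS1, a presynaptic scaffold protein, had 73.8 and 77.0 in shLuc, against 28.7 and 31.9 in shIMPA1 and 49.7 and 46.1 in shIMPDH2. It fell in shIMPA1 (log2 change -1.29, limma adjusted p = 0.0025), while its value in shIMPDH2 did not pass (limma adjusted p = 0.0875).

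Among 12 sodium and leak channel genes, 2 rose and 3 fell in shIMPA1, beside 30.2% of all genes called, and 2 fell in shIMPDH2, beside 17.0%. NALCN, a sodium leak channel, had 65.7 and 65.6 in shLuc, against 153 and 224 in shIMPA1 and 34.7 and 31.5 in shIMPDH2 (log2 changes 1.48 and -0.97, limma adjusted p = 0.00109 and 0.0175). Of 15 genes for other calcium entry and release, 1 rose and 3 fell in shIMPA1 and 1 rose and 1 fell in shIMPDH2, against the same 30.2% and 17.0% of all genes. ITPR1, a receptor that releases stored calcium in response to inositol trisphosphate, had 30.6 and 31.5 in shLuc, against 99.6 and 133 in shIMPA1 and 12.7 and 16.9 in shIMPDH2 (log2 changes 1.86 and -1.03, limma adjusted p = 0.000816 and 0.0284). ITPR3, another such receptor with far higher counts, fell in shIMPA1 (log2 change -0.60, limma adjusted p = 0.00645), a call lost without shLuc replicate 2. It had 1577 and 1709 in shLuc, against 1196 and 978 in shIMPA1 and 1956 and 1774 in shIMPDH2. ITPR2 was called in neither. For NALCN and ITPR1 the calls in shIMPDH2 were lost without any 1 of the shLuc or shIMPDH2 libraries (adjusted p up to 0.173).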

How the data were processed

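Poly(A) RNA-seq of 6 libraries was analysed. Per the submitters' processing notes, reads were handled with Trimmomatic 0.36, STAR 2.5.2b, Subread 1.5.2 (featureCounts) and DESeq2 on GRCh38. Deposited signal values, per the file headers, are normalised counts. Each library had been divided by 1 size factor, since 99.98% to 100% of its values gave whole reads within 0.05. The deposited log2 fold change and p-value columns of the authors name no comparison and entered no test. Strand use in counting is not given in the sources used here. Members beyond those named for it also share exon bases with other genes, such as KCNC2 (2298) and CACNB4 (2168). The part of such overlaps in their values was not tested.

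The unit required limma (3.58.1, R 4.3.3) on log2(value + 1) with a mean-variance trend. It covered the 17742 genes that reached 10 in 2 or more libraries, in 1 model with 3 groups and 3 residual degrees of freedom. Benjamini-Hochberg adjusted p-values under 0.05 over all tested genes were called, two-sided, and "rose" and "fell" refer to calls. This scale understates changes of low genes, and SE is the moderated standard error. Symbols came from a gene name table for 16275 genes and from GENCODE 29 for 91, and 1445 had none. Lengths and coordinates came from GENCODE 29 and promoters from RefSeq. Of 117 such channel genes in GENCODE 29, 43 were not analysed here. In each group the libraries differed by more than sampling noise, so none was counted as a duplicate. The spread was unequal: 934 tested genes differed over 2-fold between the shIMPA1 libraries, against 266 in shLuc and 398 in shIMPDH2. The model gives all 3 groups 1 estimate of the spread and does not allow for this. On simulated data, the test recovered 83.8%, 84.6% and 82.4% of 2-fold changes for shIMPA1 and shIMPDH2 against shLuc and between the knockdowns. Of 1.5-fold changes it recovered 26.5%, 33.9% and 36.6% in the same order, so a member not called may still have changed. Genes with the lowest levels were given no change in this simulation. It changed 200 genes of any kind, a smaller share than was called in the data, and gave all 3 groups the same spread. These percentages are thus not estimates for the channel members, whose median level was below that of all genes.

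Members and lists were chosen with earlier results of these data known. Values in every library are given for members called with at least a 2-fold change and a group mean of at least 50, and for the 8 highest per kilobase in shLuc. A few genes meeting this rule are left out. Values in every library of CACNA1G, CACNG6, CACNG8, KCNK17 and KCNQ3 were added after they were seen. Alternatives were other pseudocounts, filters and sample sets, a fit without trend, left-out libraries, a replicate block, and edgeR 4.0.16 and DESeq2 1.42.0 on the recovered reads.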

Additional observations from a re-analysis of the deposited data

How the results depend on the processing

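Counts of members called depended most on which libraries were kept. The share of all genes called under each alternative is not given here. The counts thus do not show if the members' share stayed above it. For shIMPA1 against shLuc, the 40 calls became 18 to 46 when each library was left out in turn, the lowest without shLuc replicate 2 and 23 without shLuc replicate 1. For shIMPDH2 against shLuc, the 33 calls became 14 to 46, with 14 without either shLuc library and 20 without either shIMPDH2 library. For shIMPDH2 against shIMPA1, the 32 calls became 21 to 41, the lowest without shIMPDH2 replicate 2. No called member changed direction in these fits, and 17, 13 and 18 calls held in each of them. A left-out library leaves 1 in its group, which is assumed to vary like the others. Under the other alternatives the counts stayed between 29 and 41, 25 and 44, and 23 and 33. With edgeR on recovered reads 40, 33 and 31 members were called, and with DESeq2 34, 28 and 23. With the replicate number as a block, the counts were 39, 35 and 31, and the calls of CACNG8 in shIMPA1 against shLuc and of KCNH2 between the knockdowns were lost. Same-numbered libraries of different groups showed correlations of their deviations of 0.04, -0.05 and 0.00027 over 17742 genes, so the numbers were not taken as pairs. The 8 members with the highest level in shLuc were the same 8, in another order, with the length of the longest coding transcript, an alternative chosen after seeing the data. Depth limits CACNG6 and CACNG8, which had 1 or 2 reads in a group. It also limits CACNG7 and CACNA2D3, which had 4 and 5 reads in shIMPDH2.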
